A study of Mus musculus with 8 samples.

Results

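The ER chaperones and the unfolded protein response were followed here through 10 genes in differentiating mouse oligodendrocyte precursor cells (OPCs): *Hspa5*, *Hsp90b1*, *Calr*, *Canx*, *Pdia4*, *Atf6*, *Eif2ak3*, *Xbp1*, *Ddit3* and *Dnajb9*. They were taken by symbol from a table of 23427 genes, where each of the 10 has 1 entry, and were chosen with earlier results of these data known. The values are FPKM (fragments divided by transcript length and library size), so that levels can be compared between genes. Between days the comparison also depends on how the libraries are scaled. The FPKM of a library summed to 402460 and 406515 on Day 0 and to 366695 and 359540 on Day 3.

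OPCs are the cells that mature into oligodendrocytes (OLs), the myelin-forming cells of the central nervous system. The libraries were made from primary OPCs of WT C57BL/6J mice at the start of differentiation (Day 0) and on Day 1, Day 2 and Day 3, with 2 replicates on each day and 8 libraries in all. All groups share the same genotype and differ in the day alone: per the study's methods, the day counts from the change to a medium that lacks PDGF-AA and holds T3, a thyroid hormone, at 40 ng/mL. The cells were taken from cortex (3 pups, postnatal day 7) and captured on dishes coated with an antibody against PDGFRα, so each library is a culture enriched in the OL lineage and not a single clone. The labels give a growth medium and an RNA kit that differ from those in the methods. The methods call the replicates of the cultures independent without saying whether they came from separate animals, so the p-values below measure the spread between these libraries, which may be technical.

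Secreted and membrane proteins fold in the ER. There Hspa5 (BiP) and Hsp90b1 (Grp94) bind unfolded chains, calreticulin (*Calr*) and calnexin (*Canx*) hold glycoproteins, and isomerases such as Pdia4 make disulfide bonds. When unfolded chains accumulate, the sensors Atf6, PERK (*Eif2ak3*) and IRE1 (*Ern1*) start the unfolded protein response. Cleaved Atf6 and the product of spliced *Xbp1* mRNA induce chaperones, and PERK slows translation and, through Atf4, induces *Ddit3* (CHOP). OLs load the ER heavily, since myelin is rich in membrane proteins and lipids, and the PERK arm is known to affect the survival of myelinating cells under stress. Gene-level FPKM does not separate spliced from unspliced *Xbp1*, and neither Atf6 cleavage nor PERK activity can be read from mRNA.

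The promoters of several chaperone genes are known to carry the ER stress response element, to which NF-Y and Atf6 bind. Its consensus, CCAAT, then 9 bases of any kind, then CCACG, was searched for on both strands of the RefSeq promoter windows (GRCm38.p6, from 250 bases before to 50 bases after the start of a gene). A window was found for 9 of the 10 genes (all but *Atf6*), and 4 of these held the element, against 37 of the 27025 genes with a window (0.137%). The 5 matches are shown because they split the 10 genes by sequence alone, without use of expression. Capitals mark the fixed ends of the element and lower case its spacer.
*Hspa5*: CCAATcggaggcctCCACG
*Hsp90b1*, distal match: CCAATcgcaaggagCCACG
*Hsp90b1*, proximal match: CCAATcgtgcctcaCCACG
*Calr*: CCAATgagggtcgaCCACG
*Canx*: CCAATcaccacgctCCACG

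The match of *Hspa5* lies at chr2:34772025-34772043 and begins 65 bases upstream of the RefSeq start that sets the window, on the strand of the gene. That start lies downstream of the GENCODE start given with the gene below, so by the GENCODE coordinates the match falls inside *Hspa5*. *Hsp90b1*, on the minus strand of chromosome 10, has a match on its own strand at chr10:86705638-86705656 and another on the opposite strand at chr10:86705533-86705551, nearer to the RefSeq start. The match of *Calr*, a gene on the minus strand of chromosome 8, lies on the opposite strand at chr8:84847075-84847093, and that of *Canx*, on the minus strand of chromosome 11, on its own strand at chr11:50325800-50325818. The window of *Pdia4* holds 3 copies of CCAAT and 1 of CCACG but none at this spacing, and that of *Xbp1* holds neither. *Eif2ak3*, *Ddit3* and *Dnajb9* had no match in their windows. A match describes the letters of a window and not a site in use.

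Read back from the steps between low values, the depth was roughly 949000 to 1519000 fragments per library, lowest on Day 3. *Calr*, *Hsp90b1*, *Hspa5* and *Canx* rest on roughly 339 to 1696 fragments in a library, *Pdia4* on 90 to 248, and *Atf6* and *Eif2ak3* on 69 to 150. *Xbp1* rests on roughly 12 to 107 and *Dnajb9* on 37 to 55, and the values of *Ddit3* correspond to 5 to 18 fragments in each library, so counting error alone is large for it. As a check of the cells, the summed FPKM of 6 OL markers went from 1074 and 787 on Day 0 to 18963 and 26846 on Day 3 (replicate 1 and replicate 2), with 6 of 6 higher by limma. That of 4 progenitor markers went from 1002 and 1035 to 261 and 162, with 4 of 4 lower. Microglial, endothelial and mural markers summed to at most 2.51, 0.428 and 0.343 FPKM in any library, with 4 of 5, 2 of 4 and 1 of 3 of them listed at 0 throughout. Neuron markers summed to 1.58 to 10.6 FPKM, highest in replicate 2 of Day 0 and at 1.76 and 2.58 on Day 3, and neither of the 2 that could be tested was called between Day 0 and Day 3 (1 was lower with the replicate block). A list of 8 astrocyte markers summed to 191 to 496 FPKM in replicate 1 and to 380 to 1062 in replicate 2, and replicate 2 was the higher on every day. In these bulk libraries fewer cells of a type and less mRNA per cell cannot be told apart.

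The 10 genes fell into a group of high level and a group of low level. On Day 0 the 5 folding factors were between 66.1 ± 2.83 FPKM (*Pdia4*, SD, n = 2) and 384 ± 6.56 FPKM (*Calr*), and the other 5 genes between 6.46 and 19.1 FPKM on average. *Calr* had the highest level of the 10 on each of the 4 days, and by mean FPKM it ranked 139th among all 23427 genes on Day 0, 55th on Day 1, 167th on Day 2 and 216th on Day 3. The order of the folding factors on Day 0 was *Calr*, *Hsp90b1*, *Canx*, *Hspa5* and *Pdia4*, with no overlap of replicates between neighbours. On Day 1 *Hspa5* stood above *Canx*, and on Day 2 *Hsp90b1* and *Canx* overlapped. Among the low genes the order was *Xbp1*, *Eif2ak3*, *Dnajb9*, *Atf6* and *Ddit3* on Day 0, and *Ddit3*, *Dnajb9*, *Eif2ak3*, *Atf6* and *Xbp1* on Day 3, where the pairs *Ddit3* and *Dnajb9*, and *Atf6* and *Xbp1*, overlapped. The highest mean fell on Day 1 for 6 of the 10 genes, compared with 24.2% of all genes tested. For *Hsp90b1* this rests on means of 253.8 FPKM on Day 1 and 253.7 on Day 0 with overlapping replicates, and without replicate 2 of Day 0 or of Day 1 the number was 5. For *Eif2ak3* it rests mainly on replicate 2 of Day 1.

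**Figure D1:**
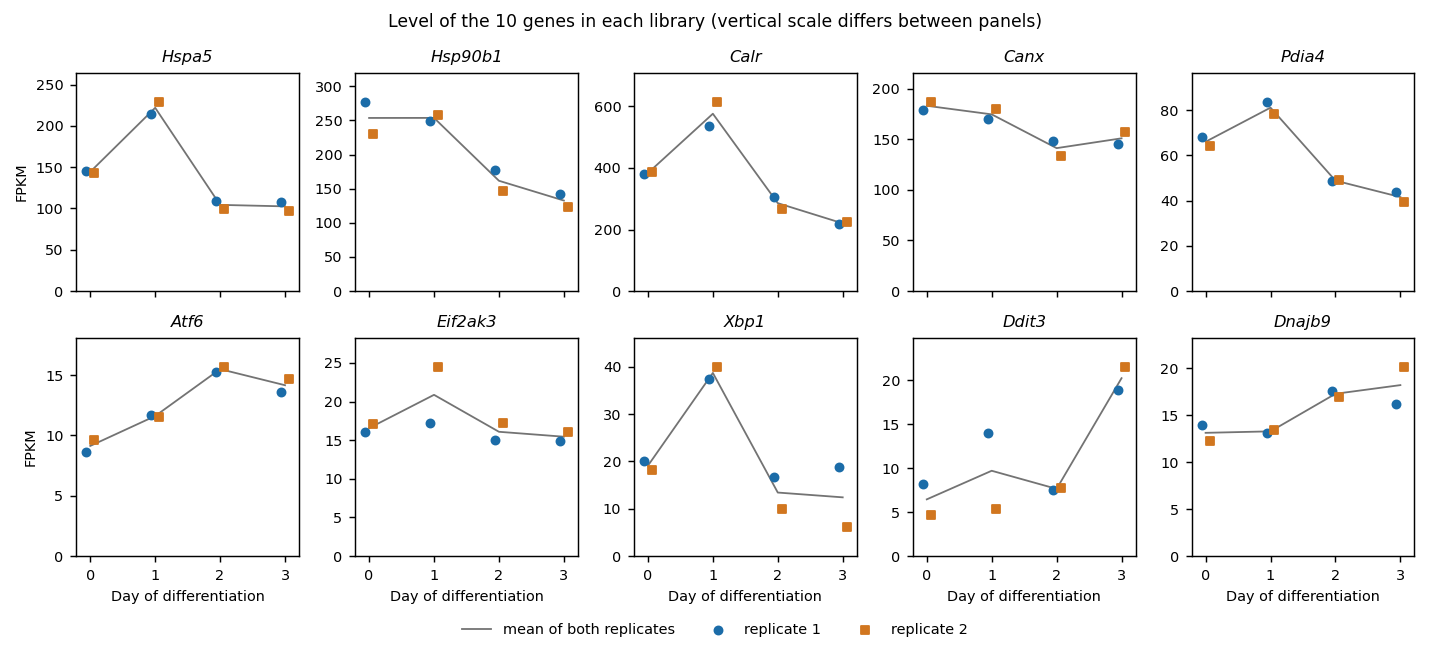
FPKM of the 10 genes (vertical axis, own scale per gene, from 0) against the day of differentiation (horizontal axis), with replicate 1 as circles, replicate 2 as squares and their mean as a line. *Hspa5*, *Calr*, *Pdia4* and *Xbp1* are highest on Day 1 in both replicates, *Atf6* is lowest on Day 0, and *Ddit3* is highest on Day 3.

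The days were set against each other by limma, on log2(FPKM + 1), among the 12208 genes with at least 1 FPKM in at least 2 libraries, and all 10 genes were among them. A gene was called higher or lower at a Benjamini-Hochberg adjusted p under 0.05. From Day 0 to Day 1, *Hspa5* and *Calr* were higher and none of the 10 was lower, where 5.04% of all genes tested were higher and 7.56% lower. At an unadjusted p under 0.05, 3 of the 10 were higher and none lower, beside 3269 of the 12208 genes in both directions. From Day 1 to Day 2, *Hspa5*, *Calr* and *Pdia4* were lower and none was higher, against 1.73% of all genes lower and 2.16% higher. At an unadjusted p under 0.05 these counts of the 10 were 6 and 0, beside 2665 of the 12208 genes in both directions. With the replicate number as a block in the model, *Hsp90b1* and *Xbp1* were lower as well, 5 of the 10 in all, beside 3.57% of all genes. From Day 2 to Day 3 none of the 10 was called in either direction, and 0.246% of all genes were higher and 0.0491% lower in that step. At an unadjusted p under 0.05, *Ddit3* was higher and *Calr* lower, beside 1773 of the 12208 genes in both directions. The shares over all genes move with single libraries too: from Day 1 to Day 2 the 264 higher and 211 lower genes became 11 and 0 without replicate 2 of Day 2 (1584 in both directions at an unadjusted p under 0.05), 52 and 8 without replicate 1 of Day 1, 134 and 54 without replicate 2 of Day 1, 140 and 101 without replicate 1 of Day 2, and 110 and 28 or 110 and 26 without replicate 1 or replicate 2 of Day 0. The 615 higher and 923 lower genes from Day 0 to Day 1 became 248 and 359 or 216 and 367 without replicate 1 or replicate 2 of Day 0, and 270 and 438 without replicate 2 of Day 1.

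From Day 0 to Day 3, *Hsp90b1*, *Calr*, *Pdia4* and *Hspa5* were lower and *Ddit3* and *Atf6* higher. Over all genes tested 26.3% were lower and 12% higher in this comparison, and their median fell by 0.31 on the log2 scale, so the count of 4 lower genes stands against a frequent call. Without replicate 1 or replicate 2 of Day 0 the 3207 lower genes became 1799 or 1804. With median ratio scaling, which left the median of all genes at -0.07, 3 of the 10 were lower (*Hsp90b1*, *Calr* and *Pdia4*) and 3 higher (*Ddit3*, *Atf6* and *Dnajb9*). Over all genes 17.6% were then lower and 16.8% higher. An F test of any difference among the 4 days called *Hspa5*, *Hsp90b1*, *Calr*, *Pdia4* and *Xbp1*, 5 of the 10, compared with 35.2% of all genes (4292 genes, and 2156 or 2100 without replicate 1 or replicate 2 of Day 0). With the block the F test called *Ddit3* too, and 5004 genes of all those tested.

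**Figure D2:**
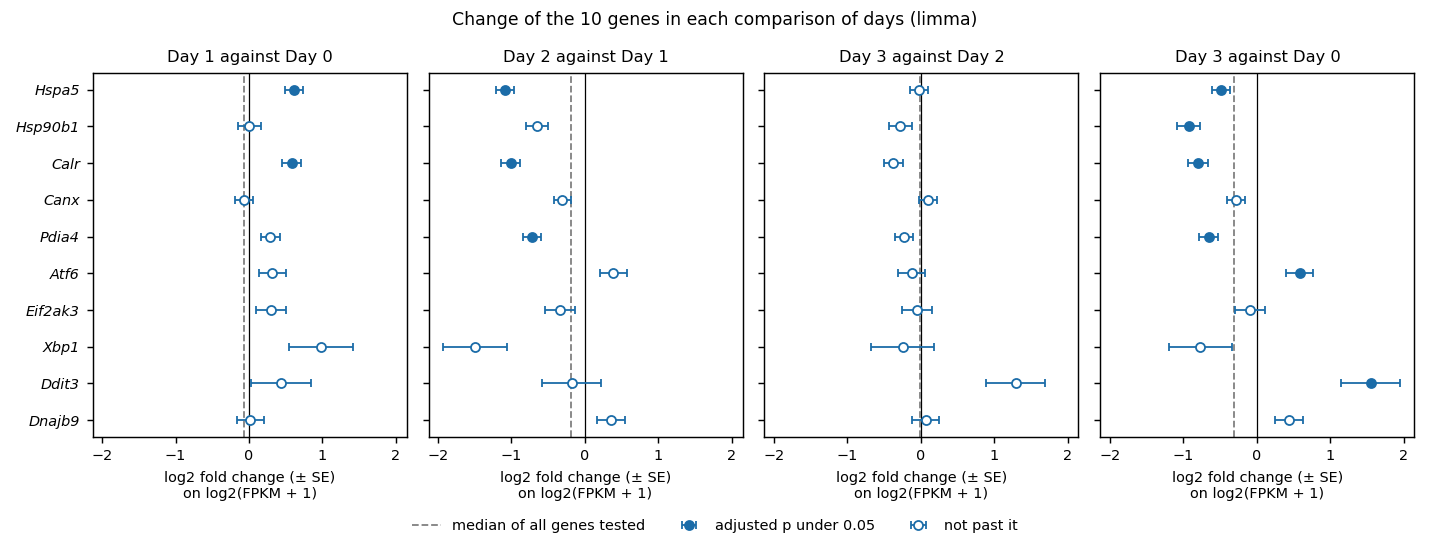
Log2 fold change ± SE (horizontal axis, limma on log2(FPKM + 1)) of the 10 genes (vertical axis) in each comparison of days. Filled points passed an adjusted p of 0.05 and open points did not, and the dashed line is the median of all genes tested, at -0.07, -0.19, -0.02 and -0.31 from left to right.

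*Hspa5* (chromosome 2, 34771970 to 34777547, GRCm38) encodes BiP, the Hsp70 of the ER, which also holds the sensors inactive. Its Day 0 libraries had 145 and 143 FPKM, those of Day 1 215 and 229, those of Day 2 109 and 99.3, and those of Day 3 108 and 97.2, replicate 1 being given before replicate 2 throughout. Both Day 1 libraries stood above all others, and both Day 0 libraries above those of Day 2 and Day 3. The mean of Day 1 was 1.54 times that of Day 0, or 0.62 on the log2 scale (limma, adjusted p = 0.0143, SE 0.12). The step to Day 2 was -1.08 (adjusted p = 0.00707), and that from Day 2 to Day 3 was -0.03 (adjusted p = 0.956). Day 3 stood at -0.49 against Day 0 (adjusted p = 0.0148), which is -0.18 when set against the all-gene median, and with median ratio scaling it was -0.21 and no longer passed (adjusted p = 0.211). The rise to Day 1 lost its call without either Day 0 library (adjusted p = 0.0920 and 0.102) and without replicate 2 of Day 1 (0.0841). The fall to Day 2 lost it without replicate 2 of Day 2 (0.0871), and the fall to Day 3 without either Day 0 library (0.0789 and 0.0710) or replicate 2 of Day 3 (0.0704), with the direction kept each time.

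*Hsp90b1* (chromosome 10, 86690209 to 86705509) encodes Grp94, the Hsp90 of the ER, which folds integrins and Toll-like receptors among others. Day 0 gave 278 and 229.8 FPKM, Day 1 gave 249 and 258, Day 2 gave 177 and 146 and Day 3 gave 142 and 124. The Day 0 and Day 1 libraries overlapped, and every library of Day 2 and Day 3 was below them. Unlike *Hspa5*, it showed no step to Day 1 beyond its spread (0.0066 on the log2 scale, limma, adjusted p = 0.990, SE 0.15). The difference between these 2 genes was not tested. The step from Day 1 to Day 2 was -0.65 (adjusted p = 0.0579, and 0.0294 with the block), and the whole course from Day 0 to Day 3 was -0.93 (adjusted p = 0.00227, SE 0.15), which is -0.61 when set against the all-gene median. The fall from Day 0 to Day 3 passed under each of the 18 alternatives. *Hsp90b1* overlaps the pseudogene 1810014B01Rik on the other strand and shares 12.3% of its 31-base words with other genes, and whether fragments were counted by strand is not given in the sources used here.

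*Calr* (chromosome 8, 84841850 to 84846934) encodes calreticulin, the soluble lectin chaperone that also stores calcium. The libraries of Day 0 had 379 and 388 FPKM, those of Day 1 537 and 616, those of Day 2 305 and 267, and those of Day 3 217 and 223. No 2 days overlapped, and the order of the days was Day 1, Day 0, Day 2 and Day 3. On the log2 scale the step from Day 0 to Day 1 was 0.58 (limma, adjusted p = 0.0243, SE 0.13), -1.01 from Day 1 to Day 2 (adjusted p = 0.0118) and -0.37 from Day 2 to Day 3 (adjusted p = 0.245). Over the whole course it was -0.80 (adjusted p = 0.00226), which is -0.49 when set against the all-gene median. The rise to Day 1 lost its call without either Day 0 library (adjusted p = 0.150 and 0.135) and without replicate 2 of Day 1 (0.123), and the fall to Day 2 without replicate 2 of Day 2 (0.113).

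*Canx* (chromosome 11, 50293961 to 50325673) encodes calnexin, the membrane-bound partner of calreticulin, which binds myelin glycoproteins. Its Day 0 libraries had 179 and 187 FPKM, those of Day 1 169.8 and 179.8, those of Day 2 149 and 134, and those of Day 3 145 and 157. The Day 0 and Day 1 libraries overlapped, and those of Day 2 and Day 3 lay below both. *Canx* varied least of the 10, with a highest daily mean 1.30 times the lowest, and no comparison called it: on the log2 scale the step to Day 1 was -0.07 (limma, adjusted p = 0.783), -0.31 from Day 1 to Day 2 (0.194) and -0.28 from Day 0 to Day 3 (0.105). Set against the all-gene median, the value from Day 0 to Day 3 was 0.04, and with median ratio scaling it changed sign, to 0.0085.

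*Pdia4* (chromosome 6, 47796141 to 47813430) encodes ERp72, a disulfide isomerase of the ER lumen. Day 0 gave 68.1 and 64.1 FPKM, Day 1 gave 83.8 and 78.5, Day 2 gave 48.6 and 49.0 and Day 3 gave 43.6 and 39.5. The days did not overlap and had the same order as those of *Calr*. The step to Day 1 was 0.29 on the log2 scale (limma, adjusted p = 0.183, SE 0.13), so it did not pass, in spite of the gap between the libraries. The step from Day 1 to Day 2 was -0.72 (adjusted p = 0.0242), and that from Day 0 to Day 3 was -0.66 (adjusted p = 0.00462), which is -0.34 when set against the all-gene median. With median ratio scaling the fall from Day 1 to Day 2 was -0.54 and just missed the threshold (adjusted p = 0.0534), and without any single library of Day 0, Day 1 or Day 2 its adjusted p was between 0.0625 and 0.159.

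Summed over these 5 folding factors, the libraries of Day 0 had 1050 and 1013 FPKM, those of Day 1 1254 and 1362, those of Day 2 789 and 695, and those of Day 3 655 and 641. The sum is led by *Calr*. The oligodendrocyte marker sum increased throughout the same days, and its part in these levels was not tested.

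*Atf6* (chromosome 1, 170704674 to 170867771) encodes the membrane-bound sensor that is cut in the Golgi to release a transcription factor. The libraries of Day 0 had 8.65 and 9.61 FPKM, those of Day 1 11.7 and 11.5, those of Day 2 15.3 and 15.7, and those of Day 3 13.6 and 14.7. The Day 0 libraries were the lowest and those of Day 2 the highest, with no overlap between days. Over the whole course the difference was 0.58 on the log2 scale (limma, adjusted p = 0.0361, SE 0.18), which is 0.90 when set against the all-gene median, and it was 0.85 with median ratio scaling (adjusted p = 0.00913). The single steps were 0.32 (adjusted p = 0.314), 0.39 (0.257) and -0.12 (0.820) and none passed. Without 1 library the call was lost in 7 of 8 cases, all but replicate 2 of Day 1, with adjusted p-values of up to 0.154 (without replicate 1 of Day 0) and values between 0.51 and 0.65.

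*Eif2ak3* (chromosome 6, 70844515 to 70905245) encodes PERK, the kinase that phosphorylates eIF2α. Its Day 0 libraries had 16.1 and 17.0 FPKM, those of Day 1 17.2 and 24.5, those of Day 2 14.97 and 17.2, and those of Day 3 14.9 and 16.0. All libraries but replicate 2 of Day 1 were within 14.9 to 17.2 FPKM. No comparison called it, and Day 3 stood at -0.09 against Day 0 on the log2 scale (limma, adjusted p = 0.741, SE 0.21), with the sign reversed under 3 scalings. *Eif2ak3* shares 6.78% of its 31-base words with other genes, nearly all with Gm43292, annotated on the opposite strand.

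*Xbp1* (chromosome 11, 5520659 to 5525893) encodes the transcription factor that IRE1 activates by splicing its mRNA. Day 0 gave 20.02 and 18.2 FPKM, Day 1 gave 37.4 and 40.02, Day 2 gave 16.8 and 10.03 and Day 3 gave 18.8 and 6.04. Both Day 1 libraries stood above all others, at 2.03 times Day 0 by mean, and the replicates parted on Day 3, where replicate 1 was 3.11 times replicate 2. The log2 fold change was 0.98 to Day 1 (limma, adjusted p = 0.193, and 0.0926 with the block, SE 0.43) and -1.50 from Day 1 to Day 2 (adjusted p = 0.0976, and 0.0390 with the block), so that the step to Day 1 did not pass and the step to Day 2 passed with the block but not without it. The spread on Day 3 enters these tests through the shared estimate. In the fits without a Day 3 library the step to Day 1 passed (adjusted p = 0.0433 without replicate 1 and 0.0404 without replicate 2), and so did the step to Day 2 (0.0307 and 0.0298). Between Day 0 and Day 3 it was -0.77 (adjusted p = 0.196), but -1.51 (adjusted p = 0.00940) without replicate 1 of Day 3 and -0.02 without replicate 2.

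*Ddit3* (chromosome 10, 127290829 to 127293753) encodes CHOP, a transcription factor induced by the PERK arm and linked to cell death under prolonged stress. The libraries of Day 0 had 8.23 and 4.68 FPKM, those of Day 1 14.04 and 5.39, those of Day 2 7.54 and 7.76, and those of Day 3 18.9 and 21.6, from 11 and 5, 15 and 6, 8 and 9, and 18 and 18 fragments. Both Day 3 libraries stood above all others. Replicate 1 was 2.61 times replicate 2 on Day 1, so that the days before Day 3 overlapped. Day 3 was 1.55 above Day 0 on the log2 scale (limma, adjusted p = 0.0171, SE 0.40), or 3.14 times by mean FPKM. The step from Day 2 to Day 3, of 1.29, did not pass (adjusted p = 0.186), nor did the earlier steps (0.44 with adjusted p = 0.549, and -0.18 with 0.823). Without replicate 2 of Day 0 the value from Day 0 to Day 3 was 1.2 (adjusted p = 0.122), without replicate 1 of Day 3 it was 1.64 (0.0514), and without replicate 2 of Day 3 it was 1.46 (0.0829). *Ddit3* shares 2.40% of its 31-base words with other genes, mainly its neighbour *Mars*.

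*Dnajb9* (chromosome 12, 44205559 to 44210326) encodes ERdj4, a J protein of the ER that assists Hspa5 and the clearance of misfolded chains. Its Day 0 libraries had 13.98 and 12.2 FPKM, those of Day 1 13.1 and 13.4, those of Day 2 17.6 and 16.9, and those of Day 3 16.2 and 20.1. The libraries of Day 2 and Day 3 lay above those of Day 0 and Day 1. Day 3 was 0.44 above Day 0 on the log2 scale (limma, adjusted p = 0.0958, SE 0.19), which did not pass, and it was 0.71 and passed with median ratio scaling (adjusted p = 0.0227). Although it is a target of the unfolded protein response, it was at its lowest on Day 0 and Day 1, when *Hspa5* and *Calr* were at their higher levels, and its Pearson correlation with *Hspa5* over the 8 libraries was -0.80. *Dnajb9* shares 10.8% of its 31-base words with the pseudogene Gm6568.

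Across the 8 libraries, which share days and scaling, *Hspa5* correlated at 0.96 with *Calr*, 0.95 with *Pdia4*, 0.90 with *Xbp1*, 0.85 with *Hsp90b1* and 0.72 with *Canx* (Pearson's r of log2(FPKM + 1), as a description). *Atf6* and *Dnajb9* correlated at 0.80 with each other, and both were negative with each of the 5 folding factors, from -0.57 to -0.88. The genes most like the mean standardised profile of *Hspa5*, *Hsp90b1*, *Calr*, *Canx* and *Pdia4*, among 6482 genes with a mean of at least 10 FPKM and outside the lists used below, were *Sec24b* (r = 0.995, 27.5, 30.6, 21.6 and 20.8 FPKM on Day 0 to Day 3), which encodes a COPII coat subunit, *Dennd1a* (0.989), *Madd* (0.982), *Gys1* (0.978) and *Ep300* (0.977). Of the listed genes *Hyou1* was nearest, at 0.982.

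The other genes of the pathway were taken from lists of known members, and Day 3 was first set against Day 0, where, as given above, 26.3% of all genes fell and 12% rose (17.6% and 16.8% with median ratio scaling). Of 16 further chaperones and co-chaperones of the ER lumen and membrane, 6 fell (37.5%) and none rose (1 was higher at an unadjusted p under 0.05, and *Dnajb14* rose with the replicate block). Their median log2 fold change was -0.57, beside -0.31 for all genes tested. *Creld2*, a chaperone-associated isomerase, went from 25.2 to 10.7 FPKM (log2 fold change -1.16, adjusted p = 0.00237), and *Uggt2*, a glycoprotein folding sensor, from 8.42 to 3.19 (-1.17, adjusted p = 0.0150). *Hyou1*, *Manf*, *Dnajc10* and *Mesdc2* were the other 4. With median ratio scaling 3 fell and 2 rose. Of 17 disulfide and proline isomerases tested, of 18 listed, 5 fell (29.4%) and 2 rose (11.8%), shares near those of all genes, with a median of -0.45. *Fkbp2* (-1.25, adjusted p = 0.00529) and *Txndc5* (-1.16, adjusted p = 0.00791) fell most, and *Fkbp9* went from 12.2 to 34.9 FPKM (1.44, adjusted p = 5.18e-04) and *Fkbp14* from 4.10 to 8.90 (1.00, adjusted p = 0.0401).

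Of 29 genes of the translocon and of N-glycosylation, which bring chains into the ER and attach glycans, 12 fell (41.4%) and 2 rose (6.90%) from Day 0 to Day 3, with a median of -0.48. *Tusc3*, a subunit of the oligosaccharyltransferase, fell by 1.13 on the log2 scale (limma, adjusted p = 0.00152) and *Tram1* by 1.01 (0.00223), while *Sec62* was 0.78 higher (0.00229) and *Sec61a2* 0.59 higher (0.0393). With median ratio scaling 7 fell (24.1%) and 5 rose (17.2%). Of 22 genes of ER-associated degradation, which sends misfolded chains to the proteasome, 3 rose (13.6%), a share near that of all genes, and none fell (none either at an unadjusted p under 0.05). With the replicate block 5 rose, beside 13.2% of all genes. A value above 0 was found for 18 of the 22, and how many of all genes lay above 0 was not counted. Among the 18 was *Derl3*, which had a mean of 0 FPKM on Day 0 and so could not fall. The median of the 22 was 0.18, beside -0.31 for all genes. *Edem1*, a mannosidase-like factor of degradation, went from 8.28 to 18.3 FPKM (1.08, adjusted p = 0.0109) and *Derl1*, a channel component, from 19.6 to 34.7 (0.80, adjusted p = 0.00935), and *Herpud2* was the other. With median ratio scaling 7 rose (31.8%) and none fell.

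Among 10 further signalling genes of the unfolded protein response that were tested, of 11 listed, *Creb3l2*, a membrane-bound factor of the same kind as Atf6, went from 7.64 to 27.3 FPKM (1.71, adjusted p = 8.74e-04), *Tmbim6*, a regulator of IRE1, from 150.0 to 196 (0.39, adjusted p = 0.0339), and *Nfyb*, a subunit of NF-Y, from 16.7 to 7.99 (-0.98, adjusted p = 0.0127). The sensor gene *Ern1* was at 3.91 FPKM on Day 0 and 3.16 on Day 3 (-0.25, adjusted p = 0.526). Of 12 genes of the PERK and Atf4 arm, 3 fell (25%) and 1 rose (8.33%), again near the shares of all genes. *Asns*, asparagine synthetase and a target of Atf4, went from 38.9 to 8.99 FPKM (-2.02, adjusted p = 4.96e-04), *Trib3*, at 1.91 and 1.19 FPKM on Day 0, was listed at 0 in both Day 1 and both Day 3 libraries (adjusted p = 0.0199), and *Ppp1r15a*, the phosphatase subunit that ends PERK signalling and, like *Asns* and *Trib3*, a gene known to follow Atf4, went from 9.78 to 4.37 (-1.01, adjusted p = 0.00854). The Day 0 libraries alone carried *Trib3* past the filter of 1 FPKM in 2 libraries. Its fall from Day 0, counted among the 3, was therefore favoured by the filter. *Nfe2l2*, a stress factor that PERK can phosphorylate, rose by 1.28 (adjusted p = 0.0120). *Atf4* itself was at 74.8 and 69.0 FPKM on Day 0 and 75.5 and 56.9 on Day 3 (-0.13, adjusted p = 0.660). *Ppp1r15a* and *Ern1*, like *Atf4*, are named here after their values were seen.

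Of 15 cytosolic and mitochondrial chaperones tested, of 17 listed, 6 fell (40%) and none rose from Day 0 to Day 3, beside 26.3% and 12% of all genes. None rose at an unadjusted p under 0.05 either, although *Hspb8* rose with the replicate block. Their median of -0.31 was that of all genes. With median ratio scaling 5 of the 15 fell (33.3%) and none rose, beside 17.6% and 16.8% of all genes. *Bag3*, a co-chaperone of Hsp70, fell by 1.88 on the log2 scale (limma, adjusted p = 0.0121) and *Hspe1*, a mitochondrial chaperonin, by 1.21 (5.95e-04).

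**Figure D3:**
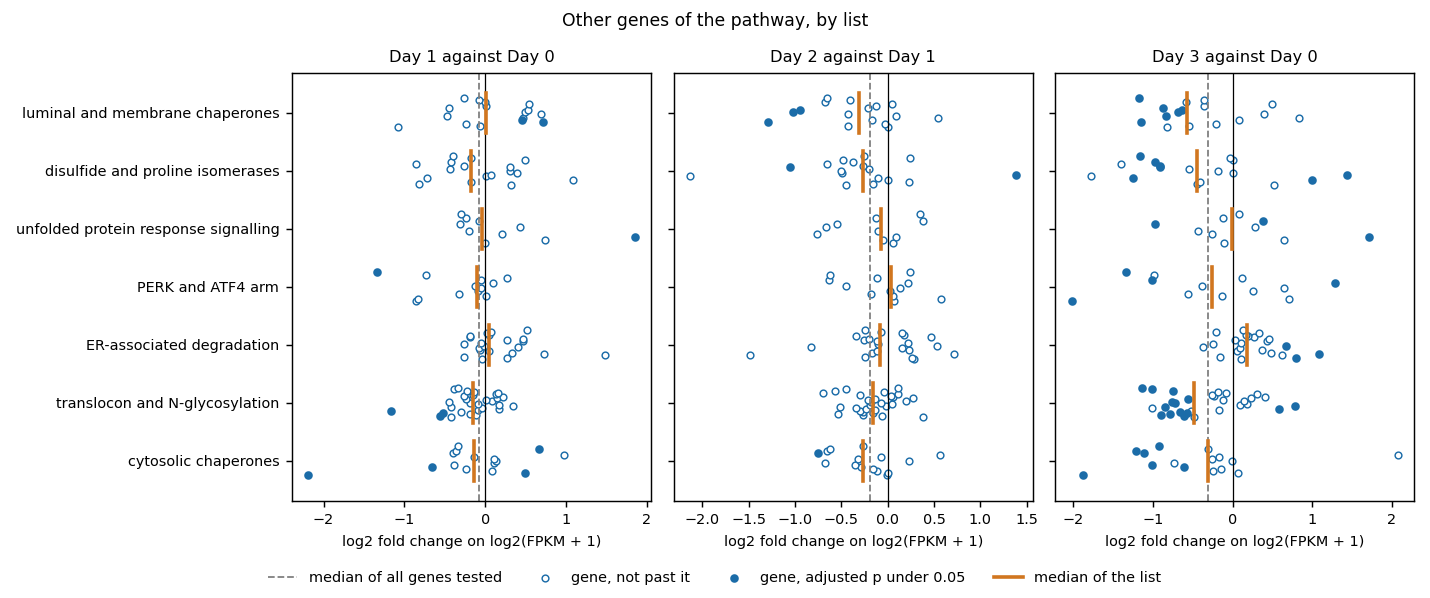
Log2 fold change (horizontal axis, limma on log2(FPKM + 1)) of each tested gene of 7 lists (vertical axis), from Day 0 to Day 1, Day 1 to Day 2 and Day 0 to Day 3. Filled points passed an adjusted p of 0.05, the orange bar is the list's median and the dashed line that of all genes tested, which from Day 0 to Day 3 lies at -0.31 against 0.18 for ER-associated degradation and -0.57 for the luminal and membrane chaperones.

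From Day 0 to Day 1, 5.04% of all genes tested rose and 7.56% fell, and 3269 of 12208 passed at an unadjusted p under 0.05. In this step *Creld2* (25.2 to 42.3 FPKM, log2 fold change 0.71, adjusted p = 0.0480) and *Dnajb11*, a J protein that works with Hspa5 (51.8 to 71.5 FPKM, 0.46, adjusted p = 0.0474), rose among the 16 chaperones (12.5%) and none fell (2 were lower at an unadjusted p under 0.05). *Creb3l2* reached its higher level already at this step (1.85, adjusted p = 0.00174). *Sec11c*, *Ddost* and *Rpn2* fell among the translocon and N-glycosylation genes (10.3%), and none of the 17 isomerases or of the 22 degradation genes was called (5 of each list at an unadjusted p under 0.05). With the replicate block *Fkbp14* rose and *Fkbp2* fell among the isomerases. *Trib3* was lower in the PERK and Atf4 arm, with the limit of the filter given above. In the cytosol *Hsph1* and *Dnaja1* rose and *Hsp90aa1* and *Bag3* fell (13.3% of that list in each direction). From Day 1 to Day 2, 2.16% of all genes rose and 1.73% fell. In that step *Creld2* (-1.29, adjusted p = 0.0159), *Hyou1* (-1.03, adjusted p = 0.0171) and *Manf* (-0.95, adjusted p = 0.0431) fell among the chaperones (18.8%), as did *Pdia6* among the isomerases (-1.06, adjusted p = 0.0197), where *Fkbp9* rose (1.39, adjusted p = 0.0103). Among all 7 lists the remaining call of this step was *Hspd1*, which fell. No listed gene was called from Day 2 to Day 3, where 8 were higher and 10 lower at an unadjusted p under 0.05, beside 1773 of 12208 genes in both directions. With the replicate block *Hspe1* fell as well from Day 1 to Day 2, and *Sec11c* rose from Day 2 to Day 3. The genes of these 2 steps are named because their counts are small.

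The promoter element was then set beside expression. Of the 37 genes whose window holds it, 30 are in the table and 17 were tested, 4 of the 10 genes and 13 others, 6 of which are in the lists above. From Day 1 to Day 2 all 17 had a log2 fold change below 0, with a median of -0.65 beside -0.19 for all genes, and 4 of them fell (*Hspa5*, *Calr*, *Creld2* and *Pdia6*), where 1.73% of all genes fell. *Derl3*, among the 17, had a mean of 1.79 FPKM on Day 1 and 0 on Day 2. Its Day 1 level carried it past the filter of 1 FPKM in 2 libraries, so its fall was built in. Others were near the floor, such as *Ero1lb* (0.946 and 0.75 FPKM). How many of all genes lay below 0 in this step was not counted. From Day 0 to Day 1, 3 rose (*Hspa5*, *Calr* and *Creld2*) and 2 fell (*Hnrnpa3* and *Adcy3*), beside 5.04% and 7.56% of all genes. Day 3 against Day 0 had 9 lower and none higher, beside 26.3% and 12% of all genes, and with the replicate block 1 was higher (13.2% of all genes). With median ratio scaling, for these genes an alternative added after the data were seen, 16 of the 17 were below 0 from Day 1 to Day 2, with a median of -0.47 beside -0.03, and 4 fell (0.893% of all genes). The 13 others alone had a median of -0.47 in that step, and 2 of them fell. These are counts over few genes, and no test of the element was made. *Pdia4*, without it at this spacing, and *Xbp1* were also highest on Day 1, and *Hsp90b1* and *Canx*, with it, showed no rise to Day 1.

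**Figure D4:**
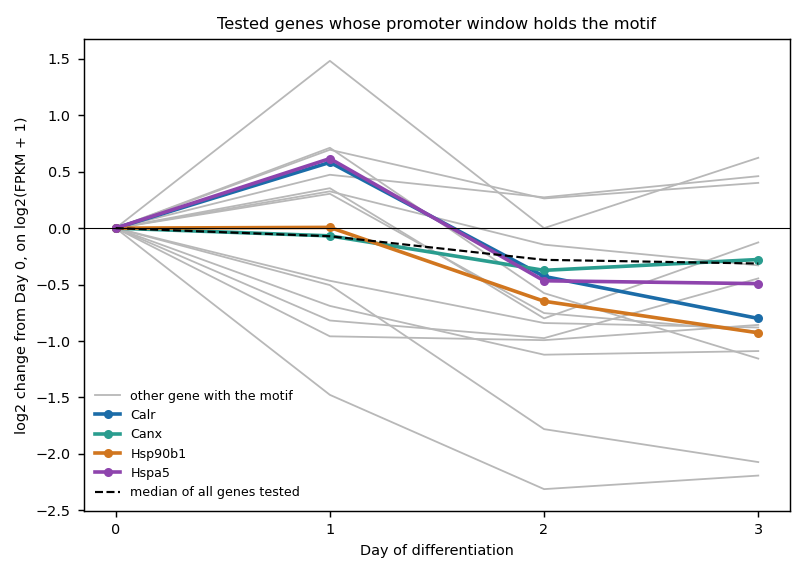
Log2 change from Day 0 (vertical axis, on log2(FPKM + 1)) against the day of differentiation (horizontal axis) for the 17 tested genes whose promoter window holds the element, with *Hspa5*, *Hsp90b1*, *Calr* and *Canx* coloured, the 13 others in grey and the median of all genes tested dashed. Each of the 17 lines goes down from Day 1 to Day 2, and lines on Day 1 lie on both sides of 0. *Derl3*, in grey, was carried past the filter by its Day 1 level.

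The replicates of a day differed little for most of the 10 genes: in 32 of 40 pairs the higher replicate was under 1.2 times the lower, and the 5 pairs above 1.4 belonged to *Xbp1* (Day 2 and Day 3), *Ddit3* (Day 0 and Day 1) and *Eif2ak3* (Day 1). Replicate 2 was set against replicate 1 over the 4 days in the model with the block. None of the 10 was called by limma, compared with 1.05% of all genes. At an unadjusted p under 0.05 the only 1 of the 10 to pass was *Xbp1*, lower in replicate 2 (-0.55, adjusted p = 0.422), beside 1447 of the 12208 genes in both directions. In the same contrast 6 of 8 astrocyte markers were called, 5 of them higher in replicate 2. All 6 OL markers were above 0 in it, with *Mag* called (0.69, adjusted p = 0.0425). Of the 4 progenitor markers none was above 0, and *Pdgfra* was called, lower in replicate 2 (-1.81, adjusted p = 0.0461). The astrocyte marker sums thus move with the replicate number and, in both replicates, with the day. On Day 0 to Day 3 they were 191, 431, 496 and 414 FPKM in replicate 1. In replicate 2 they were 380, 709, 836 and 1062 FPKM. Markers of the OL lineage also differ between the replicates, as they do between the days. The part of all these markers in the courses of the 10 genes was not tested beyond this contrast.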

How the data were processed

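The authors made stranded mRNA libraries, sequenced them as 75-nt paired ends and processed the reads in OmicSoft ArrayStudio. They deposited 1 table of FPKM, with a column per library and no pooling. The labels name the build mm10, and the aligner and gene model are not given in the sources used here. The methods name DESeq2, which needs counts and was not used.

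Days and replicate numbers were taken from the labels. FPKM were compared as log2(FPKM + 1) in limma 3.58.1 (R 4.3.3), with lmFit and eBayes with a trend, the day as a factor, all 8 libraries and 12208 genes (at least 1 FPKM in at least 2 libraries), p-values being adjusted over all of them. A fold change on this scale understates that of low genes. The model was tested on simulated data. What 1 fragment is worth was read from the spacing of low FPKM values and GENCODE M21 lengths, which gave the depth. Fragment numbers use the longest annotated transcript and, for *Ddit3*, whole multiples within 0.1. Other steps were run in Python 3.11.15 with scipy 1.17.1, pandas 2.3.3, matplotlib 3.10.9 and numpy 2.4.6.

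Same-numbered libraries deviated together: replicate differences on 2 days correlated across genes at 0.164 to 0.285 over all pairs of days. The numbers were therefore read as pairs, from the labels, and a replicate block was fitted as an alternative to the model without it. Other alternatives were a pseudocount of 0.1, no filter, at least 10 FPKM in 1 library, quantile normalization, median ratio scaling, equal sums in all libraries, only the days compared, no trend, and leaving out 1 library at a time. Median ratio scaling with the block, and median ratio scaling for the genes with the promoter element, were added after the data were seen.

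The genes and lists were chosen with earlier results of these data known. Named besides the 10 genes are, for each list, the 2 largest rises and falls from Day 0 to Day 3 past the threshold with replicates apart, and the 5 genes most like the mean profile of 5 folding factors. Other genes were named after their values were seen. Proteins with an ER retention signal at their end were not analysed here.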

Additional observations from a re-analysis of the deposited data

How the results depend on the processing

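A lone library left on a day was assumed to vary like the others. Over 180 values per comparison (10 genes under 18 alternatives each), 149 from Day 0 to Day 3 kept direction and side of the threshold, 20 lost the call, 5 gained it and 6 changed sign. In the same order there were 163, 9, 3 and 5 for Day 1 against Day 0, 158, 15, 5 and 2 for Day 2 against Day 1, and 170, 0, 0 and 10 for Day 3 against Day 2. From Day 0 to Day 3, genes called higher numbered 1 in place of 2 with only the days compared and 0 to 2 with 1 library left out (0 without replicate 2 of Day 0 or either Day 3 library), and genes called lower numbered 2 in place of 4 with median ratio scaling and the block. Between Day 0 and Day 1, genes called higher numbered 0 in place of 2 without a trend and 0 to 3 with 1 library left out (0 without either Day 0 library or replicate 2 of Day 1). Between Day 1 and Day 2, genes called lower numbered 5 in place of 3 with the replicate block, 1 without a trend, 0 with only the days compared and 0 to 4 with 1 library left out (0 without replicate 2 of Day 2). The F test called 8 in place of 5 with median ratio scaling and the block, where it called 4316 of all genes tested. Besides *Hsp90b1* and *Xbp1* between Day 1 and Day 2 and *Ddit3* in the F test, the block changed no call of the 10 genes. The fall of *Calr* over the whole course lost its call with quantile normalization (-0.43, adjusted p = 0.0720 from limma).

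The sign changed only in values that had not passed. Between Day 0 and Day 3 this held for *Canx* (0.0085 with median ratio scaling, with or without the block) and *Eif2ak3* (0.0517 with equal sums, 0.1763 with median ratio scaling with or without the block, 0.175 with quantile normalization), and from Day 0 to Day 1 for *Canx* with equal sums (0.0192). From Day 1 to Day 2 *Ddit3* was at 0.0252 with quantile normalization. From Day 2 to Day 3 *Hspa5* was at 0.0002 with equal sums, 0.0152 with median ratio scaling with or without the block, and 0.0251 with quantile normalization. With 1 library left out, *Hsp90b1* ranged from -0.13 to 0.14, *Ddit3* from -0.18 to 1.05 and *Dnajb9* from -0.0707 to 0.11 from Day 0 to Day 1, *Ddit3* from -0.80 to 0.44 from Day 1 to Day 2, and *Hspa5* from -0.10 to 0.0491, *Eif2ak3* from -0.15 to 0.0417, *Xbp1* from -0.99 to 0.50 and *Dnajb9* from -0.0843 to 0.21 from Day 2 to Day 3. The cause was not tested.

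Over all genes, median ratio scaling moved the split from Day 0 to Day 3 from 1460 higher and 3207 lower to 2056 and 2147, and that from Day 1 to Day 2 from 264 and 211 to 371 and 109. With the block the latter was 367 and 436, with only the days compared 0 and 0 (2364 in both directions at an unadjusted p under 0.05), and without a trend 82 and 39. At 949000 to 1519000 fragments a library, *Ddit3*, *Xbp1* and *Dnajb9* rest on the fewest fragments of the 10 genes in their lowest library.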

Other observations

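Among the listed chaperones, *Serpinh1* and *Hspb8* differed between the replicates. *Serpinh1*, the collagen chaperone Hsp47, was at 0 to 0.366 FPKM in the 4 libraries of replicate 1 and at 2.56 to 7.08 in those of replicate 2 (log2 difference 2.42, limma with the block, adjusted p = 0.00687, SE 0.28, higher on 4 of 4 days). The libraries of replicate 2 alone carried *Serpinh1* past the filter of 1 FPKM in 2 libraries, so this difference was favoured by the filter. *Hspb8*, a small heat shock protein of the cytosol, was at 0.7195, 1.80, 2.27 and 6.07 FPKM on Day 0 to Day 3 in replicate 1 and at 3.60, 9.93, 19.5 and 19.0 in replicate 2 (1.88, adjusted p = 0.0106, SE 0.24), and with the block it was also higher on Day 3 than on Day 0 (adjusted p = 0.00188). *Serpinh1*, 1 of 16 luminal and membrane chaperones, and *Hspb8*, 1 of 15 cytosolic chaperones, were the only genes called in this contrast among the 7 lists. None was called in the other lists, of 29, 22, 17, 12 and 10 genes tested, and 1.05% of all genes were called. Both genes were named after their values were seen. The summed astrocyte markers were also higher in replicate 2, at 380 to 1062 FPKM against 191 to 496. *Gfap* (3.55, adjusted p = 1.03e-05) and *Aqp4* (3.97, adjusted p = 2.12e-05) were among those called higher by limma with the block. *S100b* was called lower in replicate 2 (-1.02, adjusted p = 0.0184), and *Slc1a2* and *Aldoc* were not called. The part of these markers in the difference of *Serpinh1* and *Hspb8* was not tested.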
